A study of Mus musculus with 16 samples.

Results

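The genes described here are stimulated by type I interferon, the family of cytokines that cells release on sensing viral or misplaced nucleic acids. The rule named 9 of them, Ifit1, Ifit2, Ifit3, Isg15, Irf7, Rsad2, Usp18, Bst2 and Ifi44, and took each through the probe sets (groups of array probes for a transcript) that carry its symbol alone. Of the 9, 6 were measured in this way, among 17097 genes in all. Isg15, Bst2 and Ifi44 were not analysed here, because no probe set carried their symbol alone in the probe table used.

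RNA of quadriceps muscle from 16 mice was measured on Affymetrix arrays, with 1 mouse per array and 4 mice per group. The groups were control and Mfn2 KO mice at 6 months of age (young) and control and Mfn2 KO mice at 22 months (old). Mfn2 encodes mitofusin 2, which fuses the outer membranes of mitochondria. All mice ate standard chow, and strain, sex and the promoter or Cre line behind the deletion are not given in the sources used here. The labels also give a family: A held 1 old control and 3 old KO mice, B held 2 old control mice, C held 1 young control and 1 young KO mouse, D held 1 young control and 2 young KO mice, and the other 5 mice were labelled Other. Replicates are numbered 1 to 4 in each group. The labels do not say what a shared number stands for, but arrays with the same number resembled each other, and each comparison was also fitted with the number as a block.

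In the pathway, interferon alpha and beta bind the receptor of Ifnar1 and Ifnar2 on the cell surface. Through the kinases Jak1 and Tyk2 the signal reaches Stat2, which acts with Irf9 in a complex that binds a short motif, the interferon-stimulated response element, in front of target genes. The products include antiviral proteins, Irf7 as an amplifier of interferon production, and Usp18 as a brake on the receptor. Mitochondrial DNA that reaches the cytosol is among the known triggers of this pathway.

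The response element is shown first because it is the motif that the complex binds in front of target genes. Promoter windows (250 bases before to 50 after a start site) came from RefSeq on build GRCm38.p6 and were searched for the letters GAAA, any 2 bases (NN) and GAAA again, on both strands, with overlapping matches counted. Of all 32851 windows of this length, 3.44% held at least 1 match. Windows were used for 5 of the 6 measured genes, and those of Ifit1, Ifit3 and Rsad2 held a match. The window of Irf7 and both windows of Ifit2 did not hold these letters. For Usp18 none was used here. The stretches below are the 200 bases before the start site, printed 5′ to 3′ on the strand of the gene, with each match in capitals. All matches in them carry the GAAA letters on the opposite strand and so read TTTC, NN, TTTC here. The Ifit1 stretch is chr19:34640689-34640888 (plus strand), that of Ifit3 is chr19:34583329-34583528 (plus strand) and that of Rsad2 is chr12:26456453-26456652 (minus strand).
Ifit1: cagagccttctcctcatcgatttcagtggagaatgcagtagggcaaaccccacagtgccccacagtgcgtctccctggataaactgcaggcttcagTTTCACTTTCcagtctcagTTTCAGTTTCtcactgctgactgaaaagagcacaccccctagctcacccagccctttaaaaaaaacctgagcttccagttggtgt
Ifit3: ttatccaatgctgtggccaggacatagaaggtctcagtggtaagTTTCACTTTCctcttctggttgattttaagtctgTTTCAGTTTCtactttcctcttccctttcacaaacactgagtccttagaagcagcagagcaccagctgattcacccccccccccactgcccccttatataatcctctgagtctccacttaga
Rsad2: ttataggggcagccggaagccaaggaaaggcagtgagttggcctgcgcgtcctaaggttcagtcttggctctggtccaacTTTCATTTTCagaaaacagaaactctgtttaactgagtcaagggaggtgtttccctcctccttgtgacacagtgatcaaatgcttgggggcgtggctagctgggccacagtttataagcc

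The matches began 104 and 85 bases before the start site in Ifit1, 156 and 122 bases before it in Ifit3 and 120 bases before it in Rsad2. Windows with 2 or more matches made up 0.225% of all windows. With Isg15 and Bst2, whose windows also held matches, 5 of 8 named genes with a window held at least 1. Among other genes of the pathway a match was held by 11 of 32 interferon-stimulated effectors with a window and by 8 of 9 interferon alpha and beta genes. These counts are of genes, with a match in any window of the gene, while the percentages are of windows. A match is a run of letters and does not by itself make a response element. Binding was not measured, and which factor would bind a match was not tested.

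**Figure D1:**
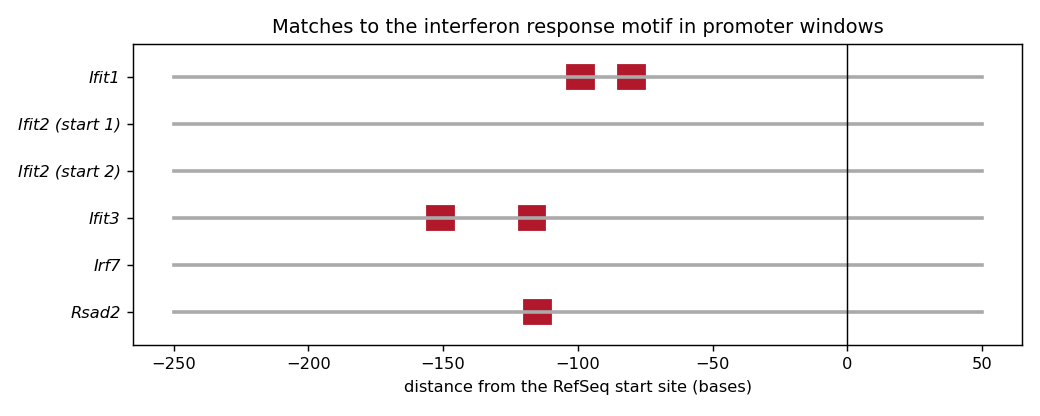
Matches to GAAA, any 2 bases and GAAA on either strand (red boxes, 10 bases each) in the promoter windows of 5 measured genes, with distance from the RefSeq start site in bases on the x axis and Ifit2 shown for 2 start sites. Ifit1 and Ifit3 hold 2 matches each, Rsad2 holds 1, and the windows of Ifit2 and Irf7 hold none.

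Values are on the log2 scale, as deposited, so that a difference of 1 is a doubling. The median probe set with 1 symbol lay between 4.86 and 4.97 in each array. It lay at 4.95 to 4.97 in replicates 1 and 2 of each group and at 4.86 to 4.87 in replicates 3 and 4. The SD over these probe sets was 1.92 to 1.97 in replicates 1 and 2 and 1.74 to 1.85 in replicates 3 and 4. A contrast of replicate 1 with the other mice of its group also carries this split. Genes that define skeletal muscle fibres (12 measured, among them Acta1 and Ckm) averaged between 11.25 and 11.91 in every array. Mfn2 itself lay between 6.32 and 8.32 in old KO and between 8.34 and 9.18 in old control muscle, without overlap (0.474% of all genes were wholly lower in old KO). The gap between the old groups was narrow (8.32 to 8.34), and only old KO replicate 3 (6.32) lay far below the other old KO mice (8.01 to 8.32). Limma gave a difference of -0.94 in old mice (SE 0.38, adjusted p = 0.999999). Mfn2 did not separate the young groups, which overlapped (8.38 to 8.54 in KO, 8.03 to 9.45 in control). The genotypes are therefore taken from the labels at both ages. Old KO replicate 1, which stands apart in the results that follow, had an Mfn2 value of 8.31. The dimmer Mfn2 probe set did not separate the old groups (3.77 to 5.10 in KO, 3.57 to 5.04 in control), and whether either probe set lies in the deleted part was not analysed here.

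In old KO muscle the interferon-stimulated genes were highest in a single mouse. For Rsad2 all 4 old KO mice lay above young KO, and for Ifit3 replicate 3 (6.70) also lay above the other 3 groups. Old KO replicate 1 had the highest value of all 16 arrays for each of the 6 genes, Ifit1, Ifit2, Ifit3, Irf7, Rsad2 and Usp18. Of all 17097 genes, 5.97% had their highest value in that array, and the share in single arrays ranged from 2.40% to 11.2%. This array was noticed from these values, so the count describes it and tests nothing. Against the mean of the other 3 old KO mice it was higher by 2.18 in Rsad2 (4.52-fold), 1.34 in Ifit2 (2.53-fold), 1.09 in Ifit3 (2.13-fold), 0.94 in Irf7 (1.91-fold), 0.76 in Ifit1 (1.70-fold) and 0.69 in Usp18 (1.62-fold). Among all genes 0.538% stood at least 1 above the other 3 mice in this array. Against the mean of the replicate 1 arrays of the other 3 groups the 6 differences ran from 0.66 in Irf7 to 2.53 in Rsad2, and 1.96% of all genes stood at least 0.5 above it. Old KO replicate 1 was of family A, as were 2 of the other 3 old KO mice.

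**Figure D2:**
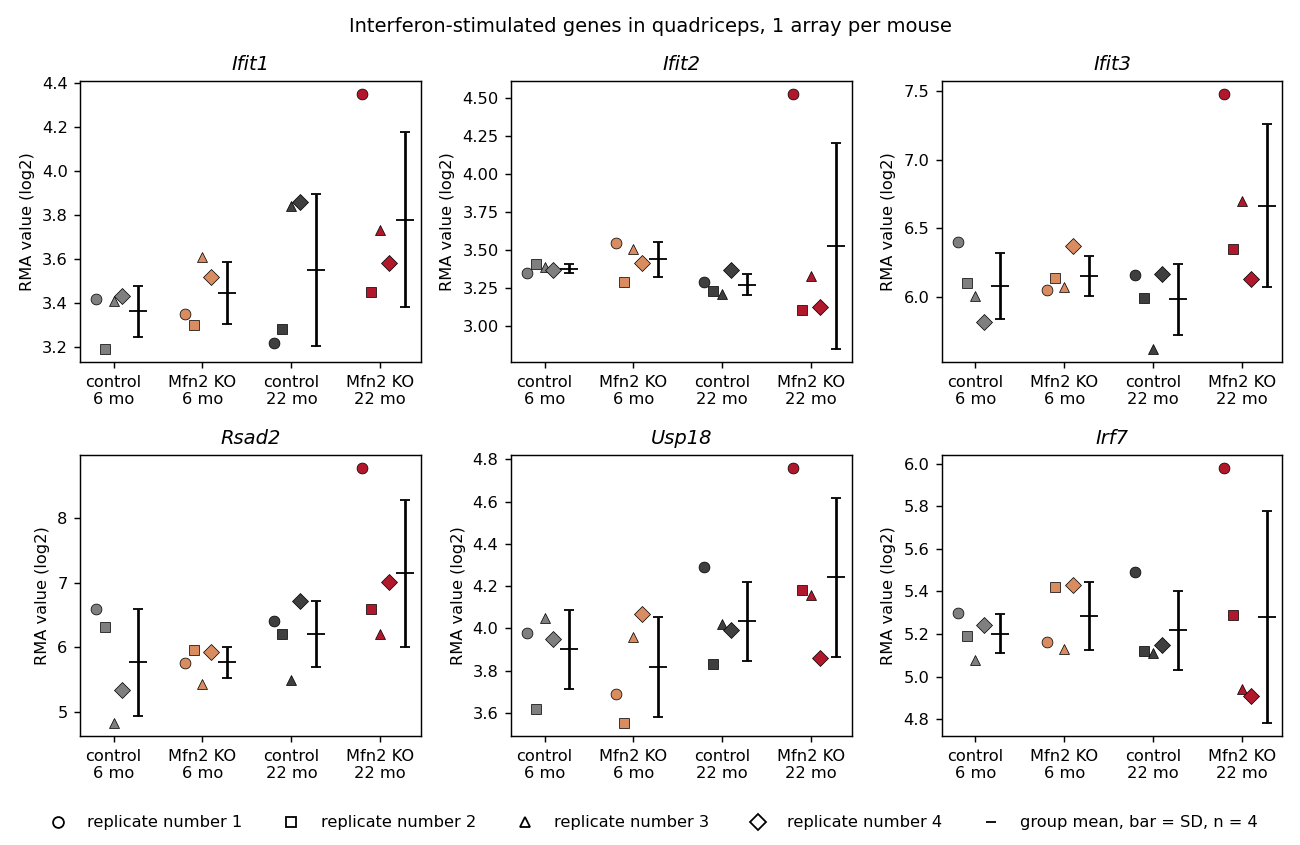
RMA values (log2, y axis) of the 6 genes in each of 16 arrays, by group on the x axis, with the marker giving the replicate number and the bar the group mean and SD (n = 4). Old KO replicate 1 is the highest point in each panel, at 8.78 for Rsad2, 7.48 for Ifit3 and 4.53 for Ifit2.

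Rsad2 encodes viperin, a radical SAM enzyme that makes a nucleotide able to stop viral RNA synthesis. Its brightest probe set read 8.78, 6.59, 6.21 and 7.01 in old KO replicates 1 to 4 and 6.41, 6.20, 5.50 and 6.71 in old control replicates 1 to 4. It read 5.75, 5.95, 5.43 and 5.93 in young KO and 6.59, 6.32, 4.82 and 5.34 in young control replicates 1 to 4. All 4 old KO values lay above all 4 young KO values, while the old KO and old control groups overlapped. Of all genes 0.924% lay wholly higher in old KO than in young KO muscle, and of the 6 only Rsad2 did. Within replicate numbers Rsad2 was higher in old than in young KO in 4 of 4 (8.92% of all genes were) and higher in old KO than in old control in 4 of 4 (6.46% of all genes were). The 2 dimmer probe sets of Rsad2 also peaked in old KO replicate 1, at 6.68 and 4.35. They averaged 5.82 ± 0.59 and 3.84 ± 0.36 in old KO against 5.27 ± 0.12 and 3.30 ± 0.05 in young KO muscle (SD, n = 4).

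Ifit1, Ifit2 and Ifit3 encode tetratricopeptide repeat proteins that bind foreign RNA or assist those that do. Ifit3 read 7.48, 6.35, 6.70 and 6.13 in old KO replicates 1 to 4 and 6.16, 5.99, 5.62 and 6.17 in old control. The young arrays read 6.05, 6.14, 6.07 and 6.37 in KO and 6.4, 6.10, 6.01 and 5.82 in control. Old KO replicates 1 and 3 were the 2 highest of all arrays, and the lowest old KO value, in replicate 4, lay within the other groups. Ifit3b, a close copy, has no value here, and whether the Ifit3 probe set tells them apart was not tested.

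For Ifit2 the single array stood alone. It read 4.53 in old KO replicate 1 and 3.11, 3.33 and 3.13 in replicates 2 to 4. The other groups spanned 3.21 to 3.37 in old control, 3.29 to 3.55 in young KO and 3.35 to 3.41 in young control muscle, so that old KO replicates 2 and 4 were the lowest of all 16. Ifit1 read 4.35, 3.45, 3.73 and 3.58 in old KO replicates 1 to 4 and 3.22, 3.28, 3.84 and 3.86 in old control. The young groups spanned 3.19 to 3.61, and the old groups overlapped. Ifit1, Ifit2 and Usp18 were dim, with mean values of 3.53, 3.41 and 4.0 that lay above 12.0%, 9.27% and 23.0% of genes.

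Usp18 is a protease that removes the ubiquitin-like protein Isg15 from its targets and also blocks the receptor. It read 4.76, 4.18, 4.16 and 3.86 in old KO replicates 1 to 4, against 3.83 to 4.29 in old control, 3.55 to 4.07 in young KO and 3.62 to 4.05 in young control muscle. Irf7 is the transcription factor that raises interferon alpha production in a feedback loop. It read 5.98, 5.29, 4.94 and 4.91 in old KO replicates 1 to 4, so that the same group held both the highest and the 2 lowest of all 16 values. The other groups lay between 5.08 and 5.49.

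Genotype was compared first in old mice. The 6 genes were all higher on average in old KO than in old control muscle (median difference 0.24, against -0.0041 over all genes), and none passed the test. Limma gave adjusted p = 0.999999 for each, and 0% of all genes were called, also with the replicate block. The largest differences were 0.94 for Rsad2 (SE 0.48, 1.92-fold) and 0.68 for Ifit3 (SE 0.24, 1.60-fold), followed by 0.25 for Ifit2 (SE 0.22), 0.23 for Ifit1 (SE 0.18), 0.21 for Usp18 (SE 0.17) and 0.06 for Irf7 (SE 0.19). At unadjusted p under 0.05 limma gave Ifit3 alone among the 6, and 1.14% of all genes. With the replicate block Ifit3 and Rsad2 were at an unadjusted p under 0.05, 2 of 6, against 6.62% of all genes. Without old KO replicate 1 the median was 0.037. In that fit Rsad2 differed by 0.40 (SE 0.38), Ifit3 by 0.41 (SE 0.185), Ifit1 by 0.039 and Usp18 by 0.035, and Ifit2 (-0.082) and Irf7 (-0.17) were lower in KO. Limma then gave Ifit3 an unadjusted p of 0.0435 and an adjusted p of 0.999953. The array left out was singled out for its high values in these same genes, so these p-values describe that fit and test nothing.

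The comparison of age in KO mice shares the old KO mice, and with them old KO replicate 1. Rsad2 was 2.61-fold higher at 22 months (log2 1.38, SE 0.48), Ifit3 1.43-fold (0.51, SE 0.24), Usp18 1.34-fold (0.42, SE 0.17) and Ifit1 1.26-fold (0.33, SE 0.18). Ifit2 differed by 0.08 (SE 0.22) and Irf7 by -0.007 (SE 0.19). The median of the 6 was 0.38, against -0.0083 over all genes. Limma called 0 of the 6 (adjusted p = 0.999943 for each) and 0.0175% of all genes. With the replicate block limma called 0 of the 6 and 0.0234% of all genes, and the lowest adjusted p among the 6 was 0.182, for Rsad2. At unadjusted p under 0.05 limma gave Rsad2, Usp18 and Ifit3, 3 of 6, and 2.59% of all genes. The same 3 were so with the replicate block, against 10.2% of all genes. The median of the 6 was 0.191 without old KO replicate 1, and 0.019 with family in the fit, where 3 of 6 were higher. With family the age difference rests on the mice labelled Other, and the median SE over all genes was 0.258 (0.157 without family). Without old KO replicate 1 the differences were 0.84 for Rsad2 (SE 0.38), 0.25 for Usp18 (SE 0.15), 0.24 for Ifit3 (SE 0.185) and 0.14 for Ifit1 (SE 0.15). Ifit2 (-0.25, SE 0.08) and Irf7 (-0.24, SE 0.14) were then lower at 22 months. In that fit limma gave an unadjusted p of 0.0083 for Ifit2 and 0.0444 for Rsad2, each with an adjusted p of 0.999792. Old KO replicate 1 was singled out for its high values in these same genes, so these p-values describe that fit and test nothing.

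Young KO and young control muscle differed in the same genes by -0.08 for Usp18 (SE 0.17) to 0.09 for Irf7 (SE 0.19), with Rsad2 at -0.005 (SE 0.48), Ifit1 at 0.08, Ifit3 at 0.07 and Ifit2 at 0.06. Limma called 0 of 6 and 0% of all genes, and 0 of 6 had an unadjusted p under 0.05, where 1.70% of all genes did (0 of 6 and 9.43% with the replicate block). Age in control mice gave 0.44 for Rsad2 (SE 0.48), 0.19 for Ifit1 (SE 0.18), 0.13 for Usp18 (SE 0.17), 0.016 for Irf7, -0.098 for Ifit3 and -0.11 for Ifit2. Limma again called 0 of 6 and 0% of all genes (0.0468% with the replicate block, again 0 of 6), with 0 of 6 at an unadjusted p under 0.05, where 2.12% of all genes were (0 of 6 and 9.64% with the block). With 4 mice per group, differences well beyond their SE also went uncalled, such as 1.38 for Rsad2 in old against young KO muscle (SE 0.48).

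**Figure D3:**
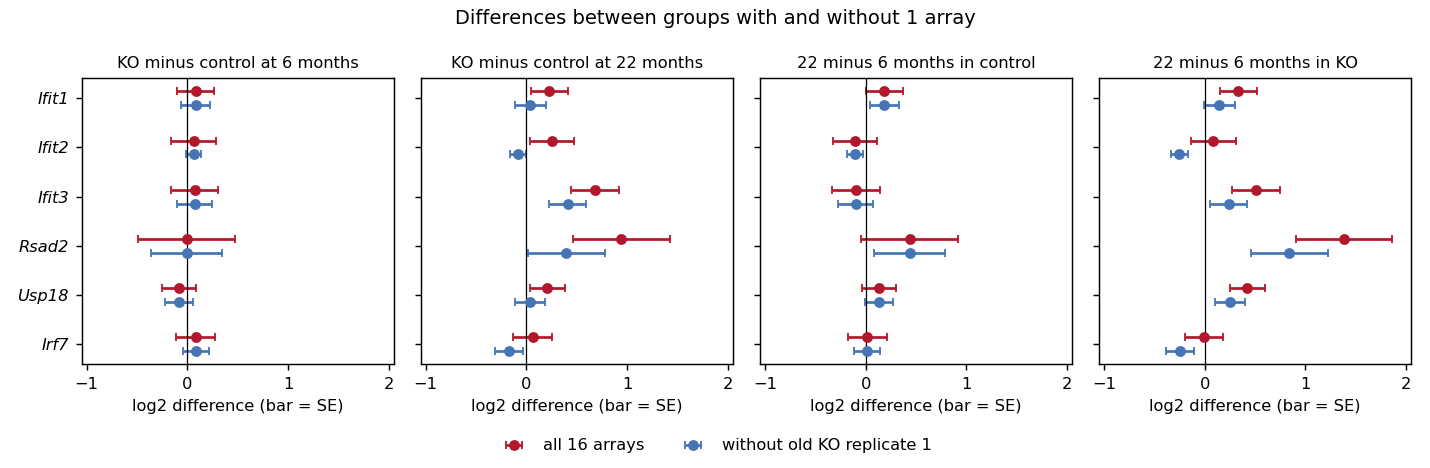
Log2 differences (x axis, bar = SE) of the 6 genes in 4 comparisons, from limma over all 16 arrays (red) and without old KO replicate 1 (blue). In old against young KO muscle Rsad2 goes from 1.38 to 0.84 when that array is left out, and Ifit2 from 0.08 to -0.25.

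Whether the genotype difference itself differed between the ages was tested as an interaction. It was 0.945 for Rsad2 (SE 0.68), 0.61 for Ifit3 (SE 0.34), 0.29 for Usp18 (SE 0.24), 0.19 for Ifit2 (SE 0.31), 0.15 for Ifit1 (SE 0.26) and -0.02 for Irf7 (SE 0.27). Limma called 0 of 6 and 0% of all genes, and 0 of 6 had an unadjusted p under 0.05, where 1.13% of all genes did. With the replicate block Ifit3 was at an unadjusted p under 0.05, 1 of 6, against 7.24% of all genes. The dimmest probe set of Rsad2 was also at an unadjusted p under 0.05, without the block, for the interaction (0.58, SE 0.19) and for genotype in old mice (0.42, SE 0.135), while its brightest was not in either, and the adjusted p of the dimmest were 0.999956 and 0.999999. Over both genotypes Rsad2 was 1.88-fold higher at 22 months (log2 0.91, SE 0.34) and Usp18 1.21-fold (0.28, SE 0.12). Limma gave both an adjusted p of 0.999912 and called 0 of 6 and 0.0585% of all genes, and both were at an unadjusted p under 0.05, where 3.52% of all genes were. With the replicate block Rsad2, Usp18 and Ifit1 were so, 3 of 6, against 11.7% of all genes. With family in the fit, where age rests on the mice labelled Other, Usp18 differed by -0.062. With the replicate block the adjusted p of Rsad2 was 0.113, where 0.579% of all genes were called, and without old KO replicate 1 its difference was 0.64 (SE 0.26). Over both ages Ifit3 was 1.30-fold higher in KO (log2 0.38, SE 0.17), and limma called 0 of 6 and 0% of all genes, with Ifit3 alone at an unadjusted p under 0.05 (1.55% of all genes), as with the replicate block (8.47% of all genes).

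Across the 16 arrays the 6 genes varied together largely through the single array. Pearson correlations ranged from 0.351 (Ifit1 with Irf7) to 0.803 (Ifit3 with Rsad2) in the 15 pairs of genes, with a median of 0.60. Without old KO replicate 1 the median was 0.0199 and the range -0.488 to 0.489, with Ifit3 and Rsad2 still the highest pair. These are descriptions over arrays that share the differences between replicate numbers.

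The genes whose pattern was most like that of the 6 (Pearson correlation with the mean of their standardised values over 16 arrays) were Oasl2 (r = 0.94), Gbp3 (0.93), Gbp2 (0.909), Ido1 (0.905), Rtp4 (0.892), Slfn2 (0.879), Tgtp1 (0.875), Psmb9 (0.852), Phf11a (0.85) and Stat2 (0.833). Without the 2 arrays farthest from the median, old KO replicate 1 and young KO replicate 4, r lay between 0.01 for Gbp2 and 0.667 for Psmb9, so the likeness as measured rests largely on them. With the mean of each replicate number removed, 9 of the 10 were named again, with Xaf1 (r = 0.927) in place of Psmb9 and Stat2 first (r = 0.963). The means removed include old KO replicate 1, so that its excess also lowers the other replicate 1 arrays, and this scale says nothing about likeness apart from that array. As measured and without old KO replicate 1, r was 0.0223 for Gbp2, 0.189 for Stat2, 0.50 for Oasl2, 0.556 for Rtp4 and, at the highest, 0.633 for Psmb9. Oasl2, of the oligoadenylate synthetase family, read 5.68 in old KO replicate 1 and between 3.75 and 4.42 in the other 15 arrays. Rtp4 read 7.80 there and 5.19 to 6.43 elsewhere, and Stat2, the signal transducer, 6.78 there and 5.10 to 5.73 elsewhere.

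The other genes of the pathway were counted by role, with old KO replicate 1 set against the replicate 1 arrays of the other 3 groups. Across all genes that array was the highest of the 4 in 22.6%, with a median difference of -0.0057. Of 10 measured interferon alpha and beta genes 5 were highest there, with a median of 0.058. The receptor and signal transducers (6 measured) were highest in 2, with a median of 0.07, and the 2 were Stat2 at 1.21 and Irf9 at 1.02, partners in the complex that binds the response element. Of 16 nucleic acid sensors and adaptors 6 were highest, with a median of 0.109. Ddx58, the RNA sensor RIG-I, stood 0.78 above and Ifih1, the RNA sensor MDA5, 0.63 above. Ddx58 read 5.68 in that array and higher, 5.92, in old KO replicate 3. Elsewhere in the list Ifi204 stood 0.25 and Trex1 0.18 above. Tbk1 differed by -0.23 and Sting1, the adaptor of cytosolic DNA sensing, by -0.10. Which kind of sensor was engaged, if any, was not tested.

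Of 40 other interferon-stimulated effectors (Ifih1 is in both lists) 34 were highest among the replicate 1 arrays, with a median of 0.479, and 25 were highest among all 16 arrays. Rtp4 stood 2.01 above, Oasl2 1.51, Ifi27l2a 1.48, Trim30a 1.34, Ube2l6 1.29 and Parp14 1.09, while Mx1 (0.02), Ifi44l (0.05) and Ifit1bl1 (-0.03) were close to 0. Ifi27l2a did not stand apart there. It read 8.26 in that array, 8.17 in old control replicate 1 and 8.28 in young control replicate 2, with young KO replicate 1 low at 5.42. Class I presentation and immunoproteasome genes were highest in 8 of 9, with a median of 0.507, led by Psmb8 (1.39), Nlrc5 (1.35) and Psmb9 (1.08). Feedback inhibitors and other interferon regulatory factors were highest in 7 of 11, with a median of 0.128 and Irf1 at 0.77. The type II interferon list (Ifng, Ifngr1, Ifngr2, Ciita, Cxcl9, Cxcl10 and Cxcl11) was highest in 1 of 7, with a median of -0.001. These 7 are not all the targets of type II interferon, and whether it acted in that mouse was not tested.

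**Figure D4:**
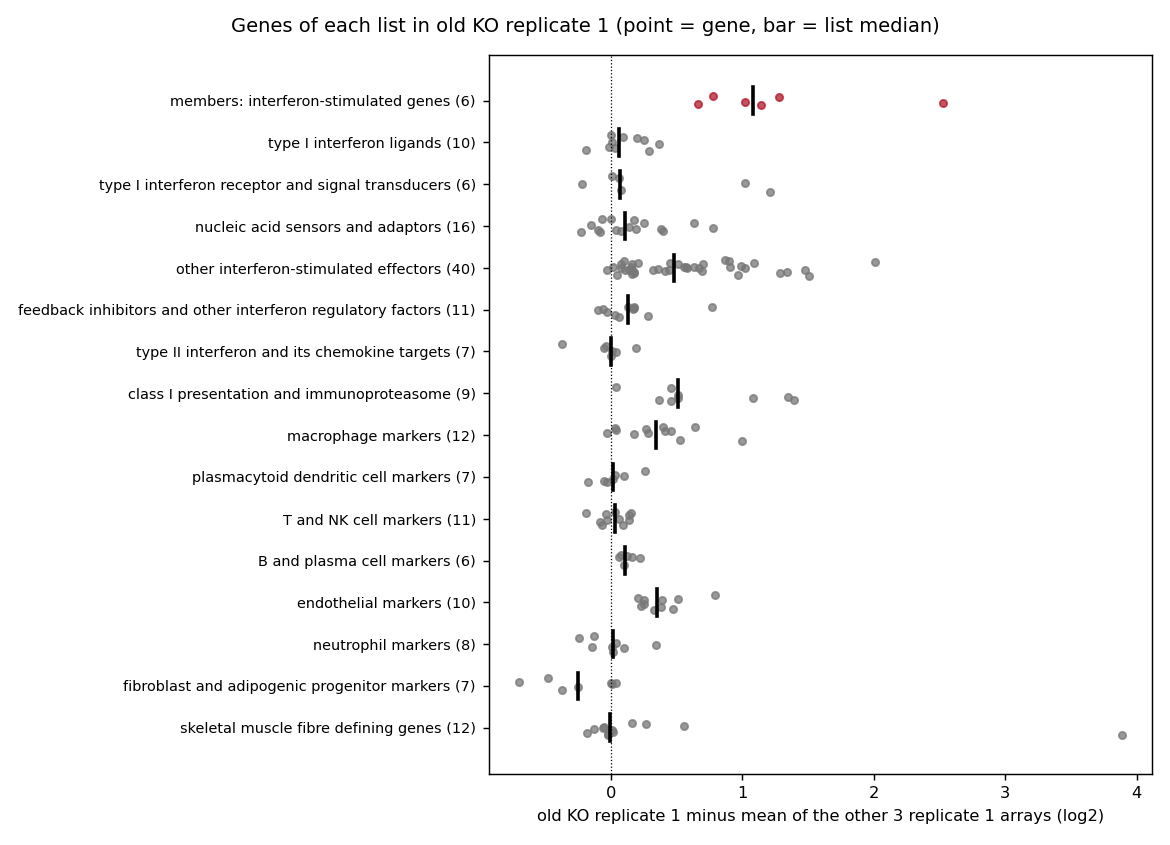
Each point is a gene, and the x axis gives its log2 value in old KO replicate 1 minus the mean of the replicate 1 arrays of the other 3 groups, with the list median as a bar and the number of genes in brackets. The 6 interferon-stimulated genes (red) lie between 0.66 and 2.53, the 40 other effectors have a median of 0.479, and the muscle point far to the right is Myh7 at 3.89.

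Between old and young KO muscle, limma called 0 genes of these pathway lists in either direction, also with the replicate block. Higher at 22 months were 32 of 40 effectors (median 0.096), 8 of 9 class I genes (0.514), 11 of 16 sensors (0.075), 5 of 6 receptor and transducer genes (0.084) and 4 of 10 interferon genes (-0.002), against 47.1% of all genes. The smallest p among effectors were those of Ifi27l2a (log2 1.63, SE 0.59), the RNA editor Adar (0.33, SE 0.14) and the membrane protein Ifitm3 (0.30, SE 0.13). For Ifi27l2a young KO was the low group, at 4.90 to 6.54 against 6.76 to 8.28 in young control (difference -1.79, SE 0.59), and old KO lay at 5.55 to 8.26. Without old KO replicate 1, 21 of 40 effectors were higher (median 0.003), against 44.5% of all genes. The median of class I genes was 0.451 in that fit. Among them Nlrc5, the activator of class I transcription, differed by 0.96 over all arrays (SE 0.27, limma adjusted p = 0.0584 with the replicate block) and Psmb9, an immunoproteasome subunit, by 0.66 (SE 0.20). Nlrc5 read 5.36, 4.28, 5.58 and 4.77 in old KO replicates 1 to 4 and 3.64 to 4.52 in young KO, so that its highest old KO value was in replicate 3.

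Between old KO and old control muscle limma also called 0 genes of these lists, with and without the block. There 37 of 40 effectors were higher in KO (median 0.13), against 48.4% of all genes, and 26 of 40 without old KO replicate 1 (median 0.055, against 44.6% of all genes). The smallest p among effectors were those of Adar (0.38, SE 0.14), Parp14 (0.52, SE 0.21) and Rtp4 (0.78, SE 0.34). Of the interferon genes 8 of 10 were higher (median 0.067), and Ifna7 differed by 0.49 (SE 0.12). Every Ifna7 value lay below the median probe set of its array, and whether its probe set tells the interferon alpha genes apart was not tested. Ifna7 read 4.68, 4.29, 4.50 and 4.49 in old KO replicates 1 to 4 and 3.75 to 4.24 in old control, without overlap (0.433% of all genes were wholly higher), though it did not separate from the young groups (3.99 to 4.51). Cxcl10, a chemokine that interferons induce, read 3.37, 3.41, 4.09 and 4.15 in old KO replicates 1 to 4 and 3.25 to 3.46 in the other 12 arrays, so that here replicates 3 and 4 were high and replicate 1 was not. In the comparison of age over both genotypes Ifngr2, a chain of the type II interferon receptor, fell by 0.33 (SE 0.06, limma adjusted p = 0.0264) with the replicate block and missed the threshold without it. With the block 0.579% of all genes were called.

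Bulk muscle holds other cell types, and more cells of a type cannot be told apart here from more RNA per cell. Endothelial markers were high in the same array. There 10 of 10 were higher than in each of the other 3 old KO mice, with a median of 0.727 above their mean (0.0544 over all genes). Among the replicate 1 arrays 8 of 10 were highest there (22.6% of all genes), with a median of 0.354. Among all 16 arrays 7 of 10 were highest there (5.97% of all genes). Their mean level was 7.76 in that array, 6.80 to 7.76 over the old KO group, and 6.84 to 7.64 over the other 3 groups. In each group this level was higher in replicates 1 and 2 than in 3 and 4, at 7.56, 7.64, 7.10 and 7.26 in young KO replicates 1 to 4. The difference from the other old KO mice also carries this split. Macrophage markers were highest in 4 of 12, with a median of 0.339 against the replicate 1 arrays, and their mean level was 5.74 in that array against 5.27 to 5.88 in old control muscle. In the comparison of age over both genotypes the macrophage gene Mpeg1 rose by 0.45 (SE 0.09, limma adjusted p = 0.0463) with the replicate block. That fit called 0.579% of all genes, and Mpeg1 was named from the 12 markers because it passed. Another of the 12, Itgam, lay at 3.46 to 3.96 in young and 3.41 to 3.89 in old muscle. The mean level of the 12 markers was 5.01 to 5.28 in young control and 5.04 to 5.54 in young KO muscle. In old muscle it was 5.27 to 5.88 in control and 5.35 to 5.74 in KO. T and NK cell markers (median 0.035) were highest in 2 of 11, neutrophil markers (0.015) in 2 of 8 and B and plasma cell markers (0.107) in 3 of 6. Markers of plasmacytoid dendritic cells, the main producers of interferon alpha, were highest in 2 of 7 (median 0.02, without Siglech and Bst2). The 7 include Cox6a2, which read 11.34 to 11.59 in all arrays, the level of fibre genes, and so does not stand for these cells here; the other 6 had a median of -0.005, with 2 highest. Fibroblast and adipogenic progenitor markers were highest in 0 of 7, with a median of -0.246. RMA values have no true 0, so none of these markers can be called absent, and the part of these cell types in the values of that array was not tested. Myh7, the slow fibre myosin, read 10.63 there and lay between 4.68 and 10.70 over all arrays.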

How the data were processed

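Quadriceps RNA of 16 mice (4 per group, 1 array each) was measured. Whole transcriptome amplification started from 25 ng of RNA, per the labels' protocols. The authors deposited log2 values for each probe set, made with RMA and the affy package, per the submitters' processing notes, with versions not given in the sources used here. The 104 control probe sets were left out. Of the other 45037 probe sets 28898 carried 1 symbol, 551 several and 15588 none, and each gene was represented by its brightest probe set with 1 symbol, with no filter on level. Comparisons used limma 3.58.1 under R 4.3.3 (all 16 arrays, group means, empirical Bayes with a trend, two-sided, Benjamini-Hochberg over all genes, adjusted p under 0.05) in 7 comparisons, and the code was tested on simulated data. The number of arrays limits the precision.

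Deviations from the group means correlated at 0.289 to 0.780 between arrays that share a replicate number (24 pairs across groups) and at -0.764 to 0.725, with a median of -0.455, between arrays of different numbers (72 pairs), so the ranges overlap. Since every pair that shares a number correlated above 0.1, the number was also fitted as a block. This pairing is read from the arrays, since the labels do not explain the number. The members and lists were chosen with earlier results of these data known. Named genes were the members, genes of the lists that passed or had the smallest p, and the 10 genes most like the members, while other genes named for their values in single arrays were chosen after those were seen. Promoter sequences are RefSeq's, on GRCm38.p6.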

Additional observations from a re-analysis of the deposited data

Results flagged for a closer look

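Among the 32 sets of 4 values (8 probe sets in 4 groups), 3 had a value far from the other 3 by Dixon's criterion, which chance meets in about 1 of 20 such sets. Ifit2 stood at 4.53 in old KO replicate 1, with a gap of 0.847 of the group's range to the nearest other mouse. Irf7 stood at 5.49 in old control replicate 1 (0.909 of the range). Ifit1 stood at 3.19 in young control replicate 2 (0.935 of the range), a low value in a group that spans 3.19 to 3.43.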

How the results depend on the processing

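Limma called 0 of the 6 genes in each of the 7 comparisons under each of 42 other settings. These were the replicate block, 2 treatments of probe sets, a filter on dim genes (which tests Ifit3, Irf7 and Rsad2), 2 further normalizations, the variance prior, the groups in the fit (run for 4 comparisons), family with and without the block, and each array left out with and without the block. The lowest adjusted p was 0.085, for Rsad2 over both genotypes with the replicate block and without old KO replicate 2. The replicate block changed no call of a member. Of 1725 recomputed differences 1614 kept their sign, and for the others the cause was not tested. Rsad2 in young KO against young control was 0.053 with quantile normalization repeated, 0.051 with median and spread scaled and 0.146 with family. Irf7 for age over both genotypes was -0.007 under each of these 2 normalizations. With family, genotype in old mice was -0.149 for Irf7 and -0.002 for Usp18, age in control -0.181 for Irf7 and -0.087 for Usp18, age in KO -0.112 for Ifit2 and -0.038 for Usp18, and age over both genotypes -0.066 for Ifit3, -0.317 for Irf7 and -0.062 for Usp18. Genotype over both ages was then -0.013 for Irf7 and -0.027 for Usp18. With family and the replicate block, genotype in young mice was -0.14 for Ifit2 and -0.03 for Irf7, and age in control -0.345 for Irf7 and -0.22 for Usp18. In that fit age over both genotypes was -0.309 for Irf7 and -0.082 for Usp18, genotype over both ages -0.012 for Usp18 and the interaction 0.072 for Irf7. With family in the fit the age difference rests on the mice labelled Other, since A and B held only old and C and D only young mice. Leaving out single arrays, with or without the block, moved genotype in young mice from -0.32 to 0.297 for Rsad2, -0.072 to 0.141 for Ifit2, -0.066 to 0.254 for Ifit3, -0.206 to 0.053 for Usp18 and -0.01 to 0.245 for Irf7. It moved genotype in old mice from -0.082 to 0.392 for Ifit2, -0.172 to 0.199 for Irf7 and -0.002 to 0.344 for Ifit1. Age in control moved from -0.225 to 0.024 for Ifit3, -0.076 to 0.062 for Irf7 and -0.241 to 0.009 for Ifit2, and age in KO from -0.241 to 0.13 for Irf7 and -0.251 to 0.223 for Ifit2. The interaction moved from -0.085 to 0.261 for Ifit1, -0.145 to 0.329 for Ifit2 and -0.257 to 0.114 for Irf7. Genotype over both ages moved from -0.01 to 0.228 for Ifit2, -0.044 to 0.153 for Irf7 and -0.024 to 0.14 for Usp18, and age over both genotypes from -0.179 to 0.059 for Ifit2 and -0.113 to 0.073 for Irf7. Rsad2 in old against young KO lay between 0.824 and 1.75 over all settings.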
